A study of Homo sapiens with 21 samples.

Results

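The genes described here build the junctions that couple one cardiomyocyte to the next. They comprise the desmosomal cadherins DSG2 and DSC2, the plaque proteins JUP, PKP2 and PKP4, the linker DSP, the alpha-catenin CTNNA3, the scaffold TJP1 and the connexins GJA1 and GJA5. The 10 genes were taken by symbol from the 6 deposited comparison tables, and every listed transcript was kept, which gave 29 of the 21537 transcripts listed in at least 1 table. All 10 genes had a listed transcript.

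Poly-A RNA was sequenced from 21 libraries of PGP1, an established human induced pluripotent stem cell (iPSC) line. The 15 wild-type libraries covered 5 stages of differentiation into cardiomyocytes, with 3 libraries at each. The stages were the undifferentiated iPSC, the mesoderm stage called M, the cardiac mesoderm called CMes, the progenitor stage called CP and the beating cardiomyocyte called CM. The other 6 libraries were CMs of the same line with gene-inactivating mutations in both copies of UBE2B. They comprised 3 each from the lines UBE2B-/-1 and UBE2B-/-2. UBE2B is the E2 enzyme of the complex that puts monoubiquitin on histone H2B. The 3 replicates of a group were separate plates, with differentiation begun on different occasions. Both mutant lines were grown from picked colonies made by different delivery methods, their cells were plated at a higher number than wild type, and only wells that beat and were then selected in lactate entered the RNA-seq, as was done for wild-type CMs. Fewer cells of a type and less RNA per cell cannot be told apart in such bulk samples.

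In the working heart, desmosomes anchor intermediate filaments at the intercalated disc. The cadherins DSG2 and DSC2 reach across the gap between cells, JUP and the plakophilins bind their tails, and DSP ties this plaque to desmin. Gap junctions of connexins pass current between the same cells, and inherited mutations of several of these desmosomal genes cause arrhythmogenic cardiomyopathy.

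The tables count transcripts of one gene apart, so coding exons that tell some of the listed transcripts from each other are shown first. All are coding sequence on GRCh38, read 5′ to 3′ on the strand of the gene, with capitals for the exon and lower case for the adjoining intron.

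TJP1-201 carries exon 20 of 28 at chr15:29719777-29720016 on the minus strand, 240 bases or 80 codons, which TJP1-209 skips.

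TJP1-201 exon: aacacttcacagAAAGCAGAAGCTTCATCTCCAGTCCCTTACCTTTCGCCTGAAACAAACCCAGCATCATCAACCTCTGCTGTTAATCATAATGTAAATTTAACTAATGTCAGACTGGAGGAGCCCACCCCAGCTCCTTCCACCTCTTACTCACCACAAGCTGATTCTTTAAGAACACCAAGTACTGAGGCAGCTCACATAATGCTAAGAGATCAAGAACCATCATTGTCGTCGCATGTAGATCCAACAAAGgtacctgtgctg

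PKP4-202 carries exon 20 of 22 at chr2:158676739-158676867 on the plus strand, 129 bases or 43 codons, which PKP4-201 lacks.

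PKP4-202 exon: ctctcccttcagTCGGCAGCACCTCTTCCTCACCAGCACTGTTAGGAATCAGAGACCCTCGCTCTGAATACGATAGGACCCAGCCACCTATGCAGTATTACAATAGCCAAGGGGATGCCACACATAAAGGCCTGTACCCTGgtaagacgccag

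DSC2-201 has an extra exon 16 of 17, and its coding part at chr18:31068312-31068344 on the minus strand gives the last 11 codons before the stop, where DSC2-202 reads on into a longer tail, so that their coding sequences measure 2541 and 2703 bases.

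DSC2-201 last coding bases: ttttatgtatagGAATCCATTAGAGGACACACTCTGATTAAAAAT

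DSP-201 and DSP-202 part inside exon 23 of 24. DSP-202 splices out at the point where the capitals end, and DSP-201 continues through a further 1797 bases, or 599 codons, at chr6:7579773-7581569 on the plus strand. The lower case here is the start of that added coding stretch.

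DSP-202 splice point: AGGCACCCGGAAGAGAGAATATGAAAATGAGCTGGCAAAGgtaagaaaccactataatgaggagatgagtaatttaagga

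Values are stage means of estimated counts, that is, reads shared out among transcripts by Kallisto and scaled between the 6 libraries of a comparison. Only pooled columns are deposited, so no value per library can be given. The means of the 3 libraries of a stage were solved from the pooled mean and variances. Each is a mean of the logs of counts plus 0.5, turned back into counts. Where libraries spread widely, it lies below a plain mean of the counts. Summed levels add such means. Differences are on the log2 scale after 0.5 was added to each count, later stage minus earlier stage, with the standard error (SE) from the residual spread of the 6 libraries. A transcript is listed where it passed the limit on q-values, and a listed transcript is said to rise or fall where its direction could be solved, which needed a listing in an adjacent comparison too. A transcript not listed was not shown to be unchanged. Adjacent comparisons share the 3 libraries of the stage between them.

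The 29 transcripts gave 56 listed stage differences, and the direction was solved for 40. From iPSC to M, 5 transcripts of 4 genes were listed, with 2 higher and 2 lower at M. From M to CMes, 11 transcripts of 7 genes were listed, with 6 higher and 2 lower. From CMes to CP, 21 transcripts of 8 genes were listed, with 14 higher and 2 lower. From CP to CM, 19 transcripts of 9 genes were listed, with 5 higher and 7 lower. Among all transcripts with a solved direction, the share higher at the later stage was 53.6%, 56.3%, 55.4% and 37.7% in the same order.

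The median size of the listed differences was 2.00, 0.96, 1.17 and 2.07 on the log2 scale for the junction transcripts, beside 0.98, 1.22, 1.06 and 1.83 for all listed transcripts of each comparison. The spread also differed by transition, with a median SD between libraries of 0.44 on the log2 scale for the junction transcripts from CP to CM and of 0.16 to 0.21 in the earlier comparisons. For all listed transcripts the same median was 0.34 from CP to CM and 0.22 to 0.26 before. With 3 libraries a stage, a difference above 2.31 residual SDs leaves no arrangement in which the libraries of the stages overlap. That held for 55 of the 56 differences, all but DSG2 from CP to CM. It held for 100%, 100%, 99.2% and 95.7% of all listed transcripts as well, so it follows from the listing. An exact permutation test of 3 against 3 libraries cannot give a p below 0.1.

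**Figure D1:**
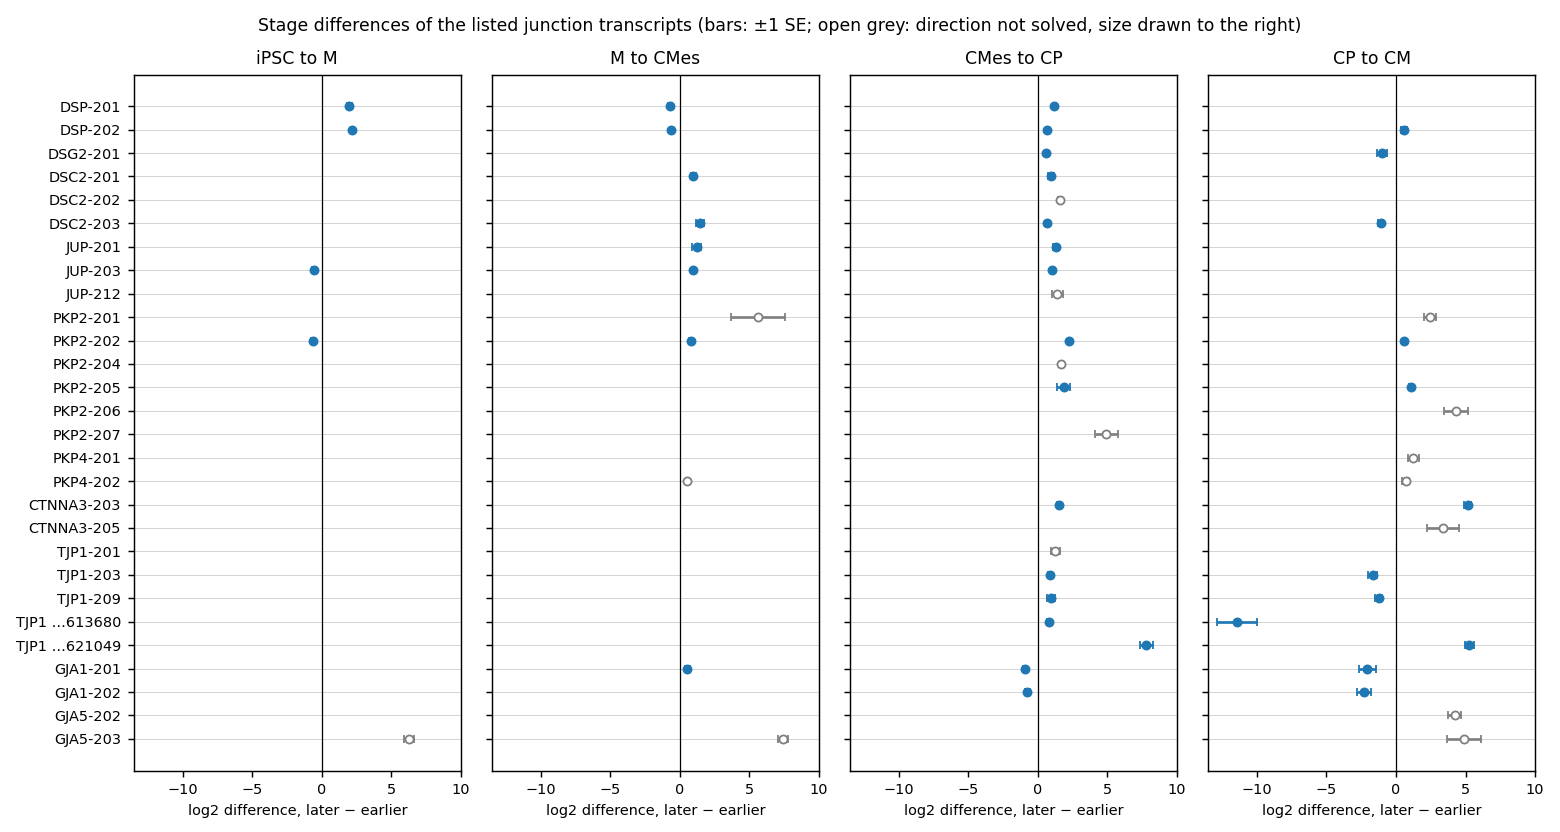
Log2 difference between adjacent stages (x axis, later minus earlier, ±1 SE, 3 libraries a stage) for each listed transcript of the 10 genes (y axis), with filled points for solved directions and open grey points, drawn to the right whatever their sign, for unsolved ones. From CMes to CP the solved points lie right of zero except for both GJA1 transcripts, and from CP to CM they lie on either side, from -11.43 to 5.27.

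Both desmosomal cadherins rose from CMes to CP, and DSC2 also from M to CMes. In CMs DSC2-203 fell, the only DSC2 transcript listed at that step, and DSG2-201 had a lower mean with a wide spread. DSG2-201, the only listed DSG2 transcript, lies at chr18:31498177-31549008 on the plus strand. It averaged 8316 estimated counts in the CMes libraries and 12241 in those of CP, a difference of 0.56 (SE 0.066), which is 6.9 residual SDs. The mean then went from 10840 at CP to 5478 in CMs, a fall of 1.98-fold. This difference, -0.98 (SE 0.36), is 2.26 residual SDs, so libraries of CP and CM may overlap.

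DSC2, the partner cadherin of DSG2, had 3 listed transcripts. DSC2-201 rose from 977 estimated counts at M to 1934 at CMes, a difference of 0.98 (SE 0.20). It rose again from 1946 to 3709 at CP, a difference of 0.93 (SE 0.21). DSC2-203, with a coding sequence of 2274 bases, rose from 380 to 1036 and then from 1042 to 1646 over the same steps, by 1.45 (SE 0.32) and 0.66 (SE 0.11). In CMs it fell from 1457 to 674, a difference of -1.11 (SE 0.19). DSC2-201 was not listed from CP to CM. DSC2-202, the transcript with the longer tail, was listed only from CMes to CP, with means of 54.6 and 165 in an order that was not solved.

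The leading transcripts of the plaque genes JUP and PKP2 fell from iPSC to M and rose from M to CMes and from CMes to CP, and that of PKP2 rose further in CMs. JUP encodes plakoglobin, which binds the cadherin tails, and its leading transcript was JUP-203. JUP-203 had means of 1465 estimated counts in iPSCs and 1008 at M, a difference of -0.54 (SE 0.13). It rose from 1078 to 2099 at CMes, by 0.96 (SE 0.086), and from 2113 to 4351 at CP, by 1.04 (SE 0.058). JUP-201 has a coding sequence of the same 2235 bases, and it rose from 687 to 1597 and from 1607 to 3871 in the latter steps. These are differences of 1.22 (SE 0.31) and 1.27 (SE 0.18), and its SD between libraries was more than that of JUP-203 both times, 0.37 against 0.11 and 0.22 against 0.071 on the log2 scale. The short JUP-212, with 3 exons, was listed once, with means of 30.8 and 81.5 at CMes and CP in unsolved order. No JUP transcript was listed from CP to CM.

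PKP2 encodes the main plakophilin of the cardiac desmosome. Its leading transcript PKP2-202, at chr12:32790755-32896777 on the minus strand, was the only junction transcript listed in all 6 tables. It fell from 1681 estimated counts in iPSCs to 1094 at M, a difference of -0.62 (SE 0.13). It rose from 1170 to 2028 at CMes, by 0.79 (SE 0.094). From CMes to CP it rose 4.79-fold, from 2041 to 9780, a difference of 2.26 (SE 0.057) or 32.3 residual SDs. A smaller rise followed in CMs, from 8660 to 13133, by 0.60 (SE 0.078).

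PKP2-201 was listed from M to CMes and from CP to CM, in unsolved order. Its means were 5.27 and 283 in the former, with an SD between libraries of 2.34 on the log2 scale, and 566 and 3073 in the latter, with an SD of 0.50. Even the higher of the latter means lay below both means of PKP2-202 in that comparison. PKP2-205, annotated as a retained intron, rose from 77.8 to 283 at CP and from 250 to 526 in CMs, by 1.86 (SE 0.47) and 1.07 (SE 0.17). Its first spread, 0.58 on the log2 scale, was above that of PKP2-202 at 0.07. PKP2-204, PKP2-206 and PKP2-207 were each listed once, with unsolved order and lower means of 78.7, 0.814 and 4.75 against higher means of 244, 25.6 and 156.

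PKP4, a plakophilin-related protein found at adherens junctions as well as desmosomes, had no solved direction between stages. PKP4-202 had means of 1542 and 2209 in the comparison of M with CMes, a difference of size 0.52 (SE 0.079). At CP and CM its means were 1068 and 1728, a difference of size 0.69 (SE 0.23). PKP4-201, which lacks the exon shown above, had means of 116 and 275 from CP to CM, so that both means of PKP4-202 lay above it.

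DSP, the linker to intermediate filaments, showed the largest early rise among the solved junction transcripts and moved up, down and up again. DSP-201, the long form, went from 2661 estimated counts in iPSCs to 10667 at M, a 4.01-fold rise or 2.00 (SE 0.19). It fell from 11411 to 6907 at CMes, a difference of -0.72 (SE 0.14), and rose from 6951 to 15672 at CP, by 1.17 (SE 0.12). DSP-202, the short form, made the same turns with little spread. It rose 4.48-fold from 1014 to 4545 at M, a difference of 2.16 (SE 0.038), fell from 4862 to 3068 at CMes, a difference of -0.66 (SE 0.049), and rose from 3087 to 4883 at CP, by 0.66 (SE 0.075).

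Only the short form of DSP was listed from CP to CM, where it rose from 4324 to 6463, by 0.58 (SE 0.19). At CMes and CP, where both forms were listed, the long form had the higher mean count, as it did in iPSCs and at M. Longer transcripts collect more reads, and these forms measure 9697 and 7812 bases.

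CTNNA3, an alpha-catenin that binds plakophilin in the mixed junctions of the heart, was the gene whose leading transcript rose most in CMs. CTNNA3-203 spans chr10:65912523-67696195 on the minus strand. It had means of 44.8 at CMes and 129 at CP, a difference of 1.51 (SE 0.17). From CP to CM it went from 114 to 4038 estimated counts, a 35.2-fold rise or 5.14 (SE 0.24), which is 17.4 residual SDs. CTNNA3-205, annotated as subject to nonsense-mediated decay, had means of 5.38 and 60.1 at CP and CM in unsolved order, with an SD of 1.40.

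**Figure D2:**
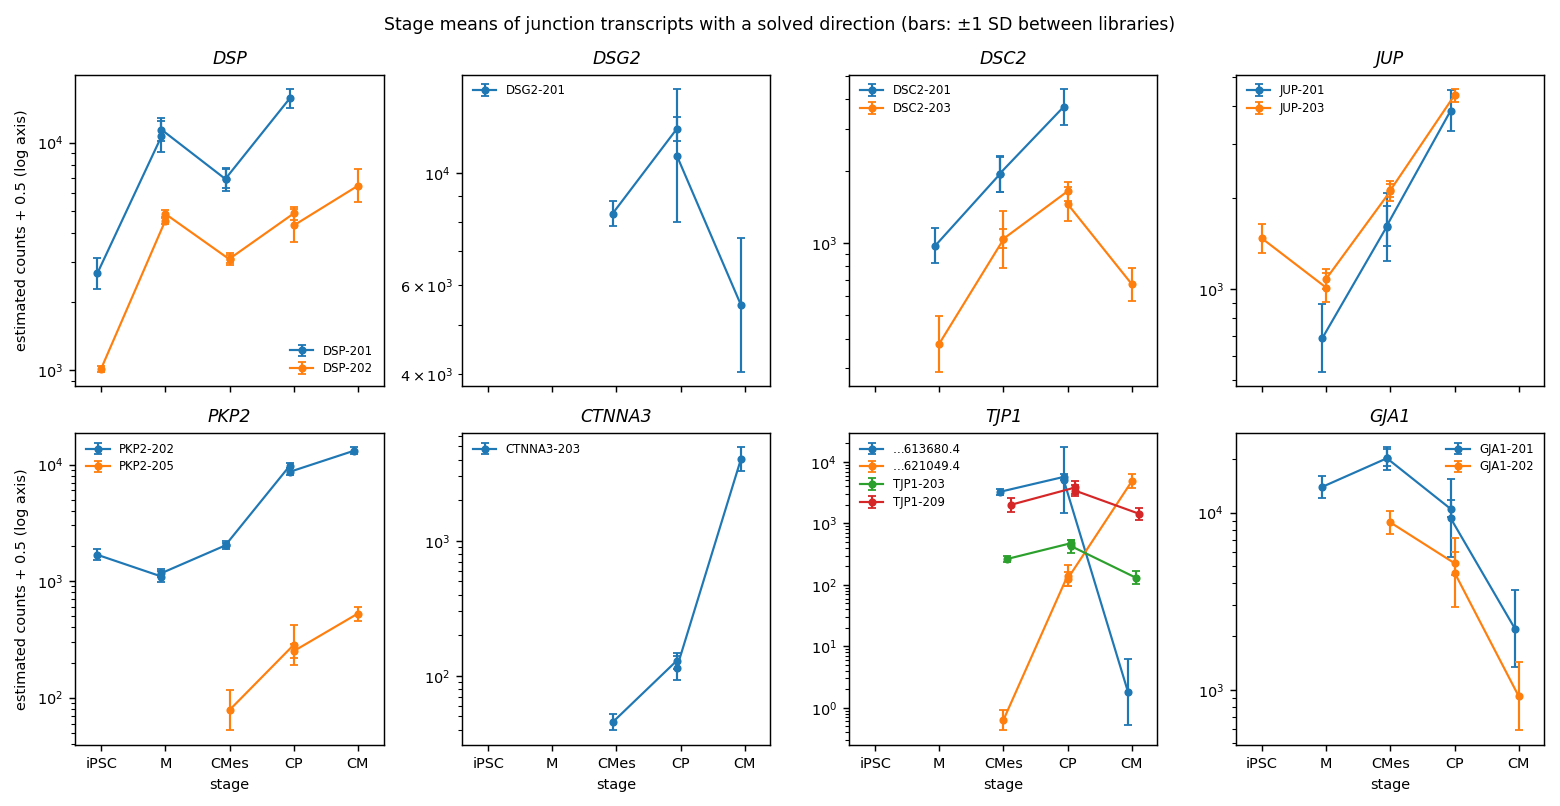
Stage means of estimated counts plus 0.5 (y axis, log scale, ±1 SD between libraries) at the 5 stages (x axis) for the transcripts of 8 genes with a solved direction; each line is 1 comparison, so a stage in 2 comparisons has 2 points, and a missing segment is an unlisted or unsolved difference. PKP2-202 and CTNNA3-203 reach their own highest level in CMs, at 13133 and 4038, while both GJA1 transcripts reach their lowest there, at 2216 and 919.

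TJP1 encodes a scaffold of tight junctions that also borders gap junction plaques at the intercalated disc. Of its 5 listed transcripts, 4 rose with a solved direction from CMes to CP. The leading one there, ENST00000613680.4, rose from 3259 to 5718 estimated counts, by 0.81 (SE 0.14). TJP1-209 rose from 2015 to 3851, by 0.93 (SE 0.30), and the shorter TJP1-203 from 264 to 479, by 0.86 (SE 0.14). TJP1-201, which carries the exon of 80 codons, had means of 233 and 553 in unsolved order, below both means of TJP1-209.

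In CMs the TJP1 transcripts parted. TJP1-209 fell from 3410 to 1429, a difference of -1.25 (SE 0.25), and TJP1-203 from 424 to 131, a difference of -1.69 (SE 0.29). ENST00000613680.4 fell from 5063 to 1.33 estimated counts, a level near zero, where the difference of -11.43 (SE 1.46) depends on the 0.5 that was added. ENST00000621049.4 moved the other way, from 0.133 at CMes to 141 at CP and then from 125 to 4849 in CMs, the last step a rise of 5.27 (SE 0.31). The SD between libraries of ENST00000613680.4 in this comparison was 1.78 on the log2 scale, against 0.31 for TJP1-209 and 0.38 for ENST00000621049.4. Summed over the solved transcripts of TJP1, the difference from CP to CM was -0.49, against -1.25 for the leading TJP1-209 alone. The GENCODE 44 annotation used here holds neither ENST00000613680 nor ENST00000621049, so how their exons differ is not described, and the split of reads between such transcripts is an estimate of the quantifier.

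GJA1, the principal connexin of ventricular muscle, fell over the last steps. GJA1-201, at chr6:121435646-121449727 on the plus strand, first rose from 13985 estimated counts at M to 20235 at CMes, by 0.53 (SE 0.17). It fell from 20364 to 10493 at CP, a difference of -0.96 (SE 0.13). In CMs it fell again, from 9292 to 2216, a 4.19-fold drop or -2.07 (SE 0.60). GJA1-202 has a coding sequence of the same 1146 bases and fell in both steps, from 8806 to 5179 and from 4586 to 919, with differences of -0.77 (SE 0.18) and -2.32 (SE 0.52). The spread between libraries was high at the last step, 0.73 and 0.64 on the log2 scale.

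GJA5, the connexin of atrial muscle and the conduction system, had no solved direction and was not listed from CMes to CP. GJA5-203 had means of 0.441 and 71.9 in the comparison of iPSC with M, and of 0.47 and 165 in that of M with CMes. Both pairs match at the shared stage M when a wider tolerance of 0.1 is allowed, and then place the low mean at M both times. From CP to CM, GJA5-203 had means of 8.29 and 260, and GJA5-202, with the same 1074 coding bases, had 23.3 and 438. These are differences of size 4.89 (SE 1.19) and 4.21 (SE 0.48) in unsolved order.

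Levels of transcripts of different genes can be set beside each other only per length, here as estimated counts per kilobase of the annotated transcript. This was done within the comparison of CMes with CP, where 8 of the 10 genes had a solved, annotated transcript. The order is of 1 transcript per gene and does not rank whole genes. For PKP2-202 and DSC2-201 the annotated length belongs to a different version of the transcript than the one counted, so their places are less certain. At CP, JUP-201 had 3871 estimated counts beside 4351 for JUP-203. ENST00000613680.4 of TJP1, with 5718, has no annotated length and is left out. At CMes, GJA1-201 stood first with 6605 counts per kilobase, followed by DSG2-201 with 1460, DSP-201 with 717, JUP-203 with 603, PKP2-202 with 483, TJP1-209 with 402, DSC2-201 with 157 and CTNNA3-203 with 4.19. At CP, GJA1-201 was still first with 3404, and PKP2-202 had moved to the next place with 2312. DSG2-201 then had 2149, DSP-201 1616, JUP-203 1241, TJP1-209 769, DSC2-201 300 and CTNNA3-203 12.

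Some neighbours in these orders were closer than their spread. At CP, PKP2-202 and DSG2-201 differed by 0.11 on the log2 scale with an SE of 0.06, and TJP1-209 and JUP-203 by 0.69 with an SE of 0.21. At CMes, JUP-203 and DSP-201 differed by 0.25 with an SE of 0.09, and TJP1-209 and PKP2-202 by 0.26 with an SE of 0.21. For these pairs the libraries may overlap, while for the other neighbours the spread leaves no overlap.

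**Figure D3:**
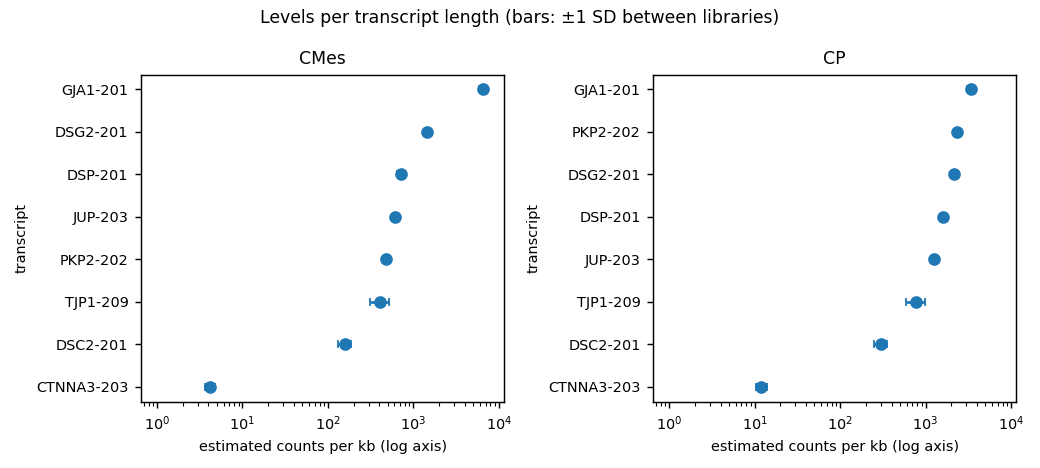
Estimated counts per kilobase of transcript (x axis, log scale, ±1 SD between libraries) at both stages of the CMes to CP comparison for the solved, annotated transcript with the highest mean of each of 8 genes (y axis, ordered by level). GJA1-201 leads at both stages, with 6605 and 3404, and CTNNA3-203 is last with 4.19 and 12.

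In the UBE2B-/- CMs, 5 of the 10 junction genes had a listed transcript, and PKP2 and CTNNA3 were lower than in wild type. The 9 libraries of wild type and both lines were fitted together, and both tables rest on that fit, so the lines share the wild-type libraries. Listed for line 1 were 4 junction transcripts and for line 2 were 5, and the mean of both lines could be set against wild type for 4, with 3 lower and 1 higher. Among all 709 transcripts placed in this way, 46.7% were lower in the mutant lines, and for 48.5% the libraries of neither line could overlap wild type. The values of the individual lines were solved as a pair, without saying which line is which.

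PKP2-202 was lower in both lines. Its wild-type mean was 15152 estimated counts, and the lines had 7802 and 9027, so neither line's libraries could overlap those of wild type. The mean of the lines differed from wild type by -0.85 (SE 0.15). The retained-intron transcript PKP2-205 had 606 in wild type and 93.3 and 119 in the lines, a difference of -2.52 (SE 0.71), and it was listed for line 2 only. CTNNA3-203 was listed for both lines. It had 4659 estimated counts in wild-type CMs and 1295 and 1355 in the lines, a difference of -1.81 (SE 0.45). For PKP2-205 and CTNNA3-203 the spread was wide enough that libraries of wild type and a line may overlap.

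ENST00000613680.4 of TJP1, near zero in wild-type CMs, was higher in the mutants. Its mean was 1.61 estimated counts in wild type and 262 and 1299 in the lines, with an SD between libraries of 2.65 on the log2 scale, the widest of the junction transcripts in this fit. The mean of the lines differed by 8.11 (SE 1.87), a size that depends on the 0.5 added, and libraries of wild type and a line may overlap. The other TJP1 transcripts were not listed for either line.

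For JUP-201, listed for line 2, no wild-type mean could be solved, and the farther line lay between 0.44 and 0.87 from wild type on the log2 scale, in an unknown direction, at a mean of 6279 over the 9 libraries. PKP4-204, annotated as subject to nonsense-mediated decay and listed for line 1, had a mean of only 3.29. No transcript of DSP, DSG2, DSC2, GJA1 or GJA5 was listed for either line.

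**Figure D4:**
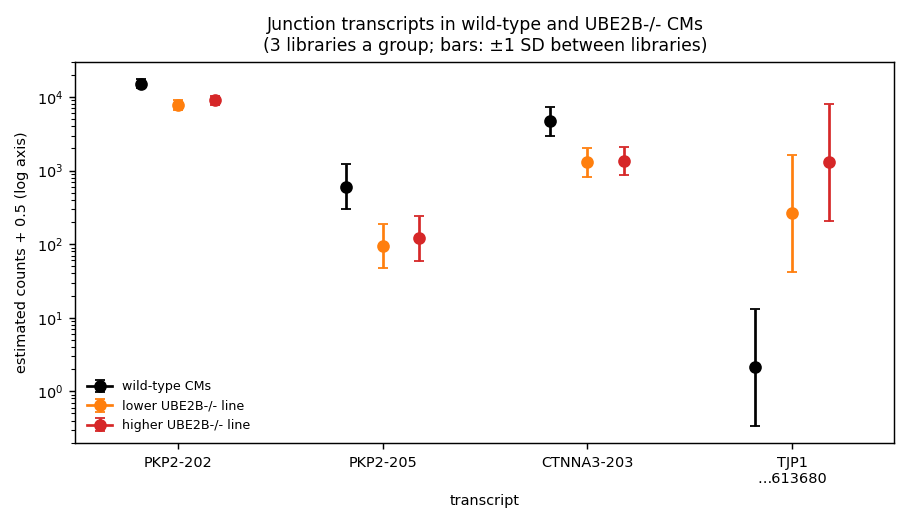
Estimated counts plus 0.5 (y axis, log scale, ±1 SD between libraries) in wild-type CMs and in the lower and the higher of the UBE2B-/- lines for 4 junction transcripts (x axis), 3 libraries a group. PKP2-202, PKP2-205 and CTNNA3-203 lie lower in both lines, and the TJP1 transcript lies higher with wide bars.

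Markers of several cell types moved with these results. Each marker counts by its listed transcript of highest mean in a comparison. Among 9 cardiomyocyte markers, 8 were higher at CP than at CMes and 8 were higher in CMs than at CP. Of the 7 listed in the UBE2B-/- fit, 5 were lower in the mutants and 2 unsolved. The summed level of the solved ones went from 84052 in wild type to 23734 in the mean of the lines. PLN alone went from 57654 to 14457. MYH6, MYL7 and TNNI1 enter this sum by transcripts with 501, 6151 and 3263 in wild type. From CP to CM other transcripts led them, with 61493, 79957 and 27322 in CMs. MYH7 and NKX2-5 were not listed in the fit. Among 8 fibroblast and smooth muscle markers, 5 were listed in that fit, with 3 higher and 2 unsolved, and the summed level of the solved ones went from 10435 to 167424. COL3A1 alone had 7391 estimated counts in wild type and 132066 in the mean of the lines. Among 9 epithelial and endoderm markers, 4 were listed there, with 2 higher and 2 unsolved, and among 6 endothelial markers 1 was higher and 1 unsolved. None of the 6 pluripotent markers was listed there. Their part in the lower PKP2 and CTNNA3 was not tested.

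Epithelial and endoderm markers also changed between stages. From CMes to CP, 6 of the 9 rose and 1 fell, the summed level of the solved ones going from 59964 to 120637. From CP to CM 7 of the 9 fell, with a sum going from 30593 to 6482. The sums of these steps hold different transcripts. KRT8, KRT18 and APOA1 enter the latter by transcripts with 681, 173 and 325 at CP. Those in the former had 43015, 39436 and 4970 at CP. The fall of these 3 genes is thus shown for the lower transcripts only. In the same steps DSG2-201, DSC2-203, TJP1-203, TJP1-209 and ENST00000613680.4 of TJP1 rose and then fell. Libraries of CP and CM may overlap for the fall of DSG2-201. PKP2-202, PKP2-205, DSP-202, CTNNA3-203 and ENST00000621049.4 of TJP1 rose at both steps, and GJA1-201 and GJA1-202 fell at both. Pluripotent markers fell at each of these steps, 5 of 6 and 4 of 6. Of the 8 fibroblast and smooth muscle markers, 4 rose from CMes to CP and 1 was unsolved, the summed level of the solved ones going from 2104 to 44800, with COL3A1 at 51.9 and 29256. At the latter step these markers had 1 higher, 3 lower and 3 unsolved, and of the endothelial markers 1 was lower and 2 unsolved. The part of these cells in the junction genes was not tested.

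The other junction genes give the setting. Of 7 partners of TJP1 at tight junctions, 6 rose from CMes to CP and 5 fell from CP to CM, with CGN, which encodes cingulin, going from 1861 to 5983 and from 5298 to 612, and OCLN, which encodes occludin, from 740 to 1333 and from 1180 to 420. Of 10 adherens junction genes, 3 rose and 1 fell from CMes to CP, where CDH2, the N-cadherin of heart muscle, went from 10034 to 17684. At the last step, CTNNB1 was the only one of them with a solved direction, higher at 5788 than at 3944. In the UBE2B-/- fit 3 adherens junction genes were listed, with 2 unsolved. For CTNND1 the listed transcript of highest mean, ENST00000529986.5, was higher, at 0.079 estimated counts in wild type and 2287 in the mean of the lines. Its wild-type level is near zero, so the size of this difference depends on the constant added to each count. From CP to CM another transcript, ENST00000358694.10, led CTNND1, in unsolved order. Whether CTNND1 as a whole gene was higher in the mutants was not tested. Of 11 further intercalated disc genes, all were listed from CP to CM, with 4 higher, 0 lower and 7 unsolved. Among them XIRP1 went from 621 to 9507 and ENST00000346177.6 of FLNC from 1713 to 23701. Another FLNC transcript, ENST00000325888.12, already had 16789 at CP in the comparison with CMes. In the UBE2B-/- fit 3 of the 11 were lower and 2 unsolved, with XIRP1 at 10969 in wild type and 3434 in the mean of the lines.

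Of the 8 other desmosome genes, most of them known from skin, 4 were listed between stages, and DSC3 was the only one with a solved direction. DSC3 fell from 146 to 64.4 at CMes, rose from 64.8 to 1049 at CP, fell from 929 to 392 in CMs and stood at 452 in wild-type CMs and 1635 in the mean of the UBE2B-/- lines, a difference of 1.85 (SE 0.40). Of 21 other connexins and pannexins, 2 were listed from CMes to CP and 5 from CP to CM. GJD2 was the only one of them with a solved direction, with a rise from 25.2 to 168 at CP and from 149 to 865 in CMs. In the UBE2B-/- fit GJC1 alone of these was listed, unsolved.

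The targeted gene could not be checked in full. One UBE2B transcript was listed in the mutant tables, for line 1, with a mean of 79.7 estimated counts over the 9 libraries and the farther line between 1.02 and 2.04 from wild type on the log2 scale in unsolved direction. Library depth is unknown from these tables.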

How the data were processed

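Per the labels and methods, the authors removed poor bases with the FASTX-Toolkit, ran Kallisto on hg38 for estimated counts per transcript, normalized them between libraries in Sleuth and listed transcripts with a q-value up to 0.05 of the Wald test. The deposited mean is the natural log of estimated counts plus 0.5, averaged over the 6 libraries of a comparison or the 9 of the UBE2B-/- fit. The deposited variances are scores, in squared natural-log units. The tables also hold the authors' effects, standard errors, p-values and q-values; these were not used, beyond checking that no q-value exceeds the limit. There are 0 columns of values per library, so depth is unknown.

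The size of a stage difference was computed from the pooled mean and total and residual variances, which by construction gives the size of a fitted difference of 3 against 3 libraries. Its direction is the sign for which a stage has the same mean in adjacent tables, within 0.03 on the natural-log scale after 1 offset per pair of tables. For the UBE2B-/- fit, wild type came from the CP to CM table with an offset of 0.143, at which 0 of 709 transcripts fell outside what the variances allow (348 with no offset). The steps were tested on simulated data drawn on the log scale, which held no counts of zero. Spreads between the simulated libraries were narrower than those of ENST00000613680.4 of TJP1 from CP to CM and in the UBE2B-/- fit. Solving was therefore not tested for such transcripts. Python 3.11, numpy and pandas were used.

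For each gene the listed transcript with the highest mean leads. Others are counted, and named where they move the opposite way or have over 2 times its spread; further named values were chosen after they were seen. Transcripts were matched to GENCODE 44 without version, 27 of 29, with 19 of the same version. Genes, lists and rules were chosen with earlier results of these data known. Replicates are plates begun at different times.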

Additional observations from a re-analysis of the deposited data

How the results depend on the processing

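No paired analysis was possible because the tables hold no column per library, and for the same reason no replicate could be left out. Without the 0.5 all 24 differences or medians recomputed stayed within the spread between libraries. These covered leading transcripts of the stage comparisons, whose counts are too high for the 0.5 to matter much. The TJP1 transcripts near zero, ENST00000613680.4 from CP to CM and in the UBE2B-/- lines and ENST00000621049.4, were not recomputed in this way. Summing a gene's solved transcripts kept every direction in 13 recomputed values and moved 3 beyond 1 SD, namely JUP (1.07 for M to CMes and 1.14 for CMes to CP) and TJP1 (-0.49 for CP to CM). A tolerance of 0.01 solved the same number of directions, 40, and one of 0.1 solved 42, adding GJA5-203. Leaving out transcripts with a mean under 10 estimated counts gave 26 rises in place of 27 and 52 separated differences in place of 55, and the larger of own and smoothed variance gave 55. With no offset PKP2-202 in the UBE2B-/- lines was at -0.54, and 3 of 4 transcripts were still lower. Depth is unknown, and estimated counts near zero are the least certain.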
